A study of Mus musculus with 17 samples.

Results

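The genes described here are the 10 that license replication origins and build the core of the replicative helicase: *Cdc6*, *Cdt1*, *Mcm2*, *Mcm3*, *Mcm4*, *Mcm5*, *Mcm6*, *Mcm7*, *Mcm10* and *Cdc45*. They were found by symbol among the 21848 genes of 4 pools of single germinal centre (GC) B cells from mice. Each of the 10 was present in every pool, and all 10 passed the filter on low counts, which left 10270 genes in the time course and 10142 in the pools sorted by CDK2 activity. Levels are unique molecular identifiers (UMIs) summed over the cells of a mouse and divided by all UMIs of that mouse, scaled to CPM. The mouse was the replicate throughout. In such sums, fewer cells that express a gene and less RNA per cell cannot be told apart.

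Before a cell copies its genome, the origin recognition complex (ORC) and Cdc6 sit on an origin and, with Cdt1, load the ring of Mcm2 to Mcm7 around DNA, a step called licensing. When S phase starts, Cdc45 and the GINS complex join the loaded ring to form the active helicase, named CMG after Cdc45, MCM and GINS, and Mcm10 helps to set it in motion. Transcription of most of these genes is driven by E2F factors and rises as cells pass from G1 into S phase. GC B cells that receive strong T cell help divide repeatedly in the dark zone, which places a heavy demand on this machinery.

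In the time course, wild-type mice primed with ovalbumin (OVA) received B1-8hi B cells, whose antigen receptor binds the hapten NP, and were then immunized with NP-OVA in the footpads. A small part of the transferred cells could bind an antibody to DEC-205 and carried a histone 2B-mCherry reporter that doxycycline switches off (Vav-tTA, Col1a1-tetO), and the other transferred cells were Ly75-/- and lacked DEC-205. The injected antibody carries OVA (anti-DEC-OVA), so that only DEC-205+ GC B cells present more antigen to T cells, and those are the cells that were sorted. Anti-DEC-OVA was given at day 7 after immunization. DEC-205+ GC B cells were taken from lymph nodes at 0 h (9 mice), at 48 h from untreated (6 mice) and treated (9 mice) animals, and at 72 h from untreated (8 mice) and treated (7 mice) animals, in 2 experiments of 25 and 14 mice. The labels give these times as days 7, 9 and 10. For the sort by CDK2 activity, GC B cells carrying the DHB-tdTomato reporter from Rosa26 were taken 72 h after anti-DEC-OVA and separated by an image-based sorter into cells with the reporter in the cytoplasm (CDK2-hi) and in the nucleus (CDK2-low). Each population of each mouse was hashtagged, and the labels give the populations as C and N. For 7 of the 9 mice of that sort the hashtags gave cells in both pools, and these were paired. Young mice of both sexes were used.

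The annotation places all 10 as protein-coding genes (mouse build GRCm39). The loading factors are *Cdc6* at chr11:98798507-98814766, plus strand, and *Cdt1* at chr8:123294703-123300293, plus strand. The ring subunits are *Mcm2* at chr6:88860452-88875762, minus strand, *Mcm3* at chr1:20870791-20890536, minus strand, *Mcm4* at chr16:15440211-15455264, minus strand, *Mcm5* at chr8:75836140-75856231, plus strand, *Mcm6* at chr1:128259311-128287516, minus strand, and *Mcm7* at chr5:138162844-138170684, minus strand. The activating factors are *Mcm10* at chr2:4994516-5017629, minus strand, and *Cdc45* at chr16:18599195-18631551, minus strand.

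The promoters of 5 genes are shown because their windows hold the 5′ end of the annotated gene and range from several E2F-type words to none. The E2F-type words searched on both strands were TTTCCCGC, TTTCGCGC, TTTGCCGC and TTTGGCGC, which can overlap on opposite strands. Each sequence runs 5′ to 3′ from 250 bases before the start of the RefSeq table entry to 50 bases after it, taken from RefSeq (table build GRCm38.p6) and placed by exact match on GRCm39. Capitals mark the E2F-type words. *Mcm3* (chr1:20890487-20890786, minus strand), *Mcm5* (chr8:75835887-75836186, plus strand), *Mcm6* (chr1:128287393-128287692, minus strand), *Cdt1* (chr8:123294504-123294803, plus strand) and *Mcm2* (chr6:88875713-88876012, minus strand) read as follows.
Mcm3: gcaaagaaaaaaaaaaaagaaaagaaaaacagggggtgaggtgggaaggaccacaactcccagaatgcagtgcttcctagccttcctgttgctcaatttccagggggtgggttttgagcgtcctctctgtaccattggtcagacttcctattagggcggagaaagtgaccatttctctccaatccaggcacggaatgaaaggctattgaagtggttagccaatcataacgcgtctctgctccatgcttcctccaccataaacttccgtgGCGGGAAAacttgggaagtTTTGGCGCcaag
Mcm5: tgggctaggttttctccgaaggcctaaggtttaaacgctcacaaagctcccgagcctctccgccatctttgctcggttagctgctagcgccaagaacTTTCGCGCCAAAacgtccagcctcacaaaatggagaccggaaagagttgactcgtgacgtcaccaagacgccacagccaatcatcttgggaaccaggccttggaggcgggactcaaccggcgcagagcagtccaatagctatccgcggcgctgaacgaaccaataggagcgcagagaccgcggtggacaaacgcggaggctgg
Mcm6: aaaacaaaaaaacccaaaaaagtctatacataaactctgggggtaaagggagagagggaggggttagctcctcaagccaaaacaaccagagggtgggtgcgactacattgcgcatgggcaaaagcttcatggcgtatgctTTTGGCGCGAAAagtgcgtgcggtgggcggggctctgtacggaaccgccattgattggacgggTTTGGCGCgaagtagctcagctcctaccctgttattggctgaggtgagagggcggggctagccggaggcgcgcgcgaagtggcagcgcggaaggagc
Cdt1: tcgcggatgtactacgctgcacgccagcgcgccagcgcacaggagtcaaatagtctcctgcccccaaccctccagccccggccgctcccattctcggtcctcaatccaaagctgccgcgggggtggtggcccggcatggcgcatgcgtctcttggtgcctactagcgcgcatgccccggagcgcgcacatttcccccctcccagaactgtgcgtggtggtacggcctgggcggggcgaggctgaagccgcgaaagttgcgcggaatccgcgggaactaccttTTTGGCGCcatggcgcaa
Mcm2: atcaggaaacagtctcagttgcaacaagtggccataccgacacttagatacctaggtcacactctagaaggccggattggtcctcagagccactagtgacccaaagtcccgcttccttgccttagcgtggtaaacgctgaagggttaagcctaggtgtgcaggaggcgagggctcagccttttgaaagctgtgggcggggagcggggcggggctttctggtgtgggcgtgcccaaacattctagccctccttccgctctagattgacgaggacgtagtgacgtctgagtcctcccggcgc

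Promoter sequences matched 9 of the 10 symbols, with 2 entries for *Mcm7*. Of those 9 genes, 6 held at least 1 of the 4 words (*Mcm3*, *Mcm5*, *Mcm6*, *Mcm7*, *Cdc6* and *Cdt1*), against 2.26% of 32851 promoters of the same length. In *Mcm6*, a pair of overlapping words on opposite strands lay at bases -110 to -99, counted from the start, and another word at -47 to -40. *Mcm5* carried such a pair at -153 to -142. In *Mcm3* both words lay after the start, at bases 19 to 26 and 38 to 45. The single word of *Cdt1* lay at bases 32 to 39. The windows of *Mcm2* and *Mcm10* held none of these letters. The entry start was within 74 bases of the 5′ end of the annotated gene for *Mcm2*, *Mcm3*, *Mcm5*, *Mcm6*, *Mcm10* and *Cdt1*, 4 of which held a word. For *Cdc6*, *Cdc45* and both entries of *Mcm7* it lay at least 470 bases inside the gene and the window did not reach the 5′ end, so that the word of *Cdc6*, those of 1 entry of *Mcm7* and the absence of words in *Cdc45* say nothing of the bases before the gene. The word CCAAT, also on either strand, was in 7 of the 9 genes and in 37.4% of all promoters. These matches describe the letters of the windows, and binding at them was not tested.

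Between 292 and 1045 cells and between 1984426 and 13373185 UMIs were kept per mouse in the time course, and between 282 and 1759 cells and 4039038 and 21358997 UMIs per mouse and population in the CDK2 pools. Kept cells of any pair of pools shared 0.111% to 0.427% of the barcodes of the smaller pool. Across the time course, the GC B cell markers *Fas*, *Bcl6*, *S1pr2*, *Mef2b*, *Mybl1* and *Rgs13* summed to 1298 to 1836 CPM per mouse, and 6 T cell markers to 47.3 to 106 CPM. At 48 h the GC B cell sum was 1312 to 1500.2 CPM in treated and 1454 to 1653 CPM in untreated mice, with some overlap, and the T cell sum 47.3 to 65.6 and 67.6 to 106 CPM, with none. Sums of 5 plasma cell markers (1189.6 to 1999 and 774 to 1509.9 CPM), 5 naive or memory B cell markers (100.02 to 137 and 125 to 174 CPM) and 5 myeloid markers (5.58 to 20.5 and 8.56 to 22.7 CPM) also overlapped between these groups, and no marker of any list was at 0 in all mice of a group. By edgeR, 4 of the 4 T cell markers tested were lower in treated mice at 48 h, as were 3 of 6 GC B cell markers and 2 of 5 naive or memory markers, 1 GC B cell marker was higher, 1 plasma cell marker was higher and 1 lower, and neither of the 2 myeloid markers tested passed, where 22.5% of all genes were lower and 24.8% higher. Median UMIs per cell were 10004 to 14467 in treated and 5030 to 7455 in untreated mice at 48 h. The part of the markers and of depth in the results at 48 h was not tested, other than by the thinning of cells described with the phases. 1 mouse stood apart. Mouse 6 of the larger experiment at 0 h had the lowest level of all 10 genes among the 0 h mice of its experiment. Its levels were 43.2% to 83.4% of the mean of the others. This mouse had 312 cells, of which 290 had a phase and 69.3% of these were in G0-G1. Without it, none of the 10 genes changed its call in the time course comparisons of all cells. It was not left out of the comparisons within phases.

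At 48 h, all 10 genes were higher in mice given anti-DEC-OVA than in untreated mice. The rise ran from 0.37 (*Mcm6*) to 0.52 (*Mcm10*) on the log2 scale, that is from 1.29-fold to 1.44-fold, with a median of 0.48 against -0.005 over all genes tested. In edgeR's quasi-likelihood test, adjusted p over all genes was 1.54e-08 to 3.38e-05 for the 10 genes. Of all genes tested, 24.8% were past the threshold of 0.05 and higher and 22.5% were lower. In each experiment, every treated mouse was above every untreated mouse for all 10 genes, which held for 9.07% of the genes tested.

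The loading factors came first in the order of the pathway. *Cdc6*, the ATPase that with ORC recruits the helicase ring, was at 43.0 to 69.0 CPM with a median of 47.0 in untreated mice and at 60.3 to 77.2 CPM with a median of 69.9 in treated mice. With both experiments pooled the groups overlapped at 1 end, the lowest treated mice lying below the highest untreated mouse. The rise was 0.50 (SE 0.093, adjusted p = 2.46e-05), and in the cells alone whose assembled contigs carry the B1-8hi receptor it was 0.32 (adjusted p = 0.0150). *Cdt1*, which carries the ring to the origin and is destroyed once S phase has begun, lay between 41.3 and 54.4 CPM (median 51.7) in untreated and between 54.0 and 72.4 CPM (median 66.2) in treated mice. Here the groups met at 1 end, with the lowest treated mouse just below the highest untreated one. The rise of *Cdt1* was 0.44 (SE 0.068, adjusted p = 1.41e-06 by edgeR).

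All 6 subunits of the ring rose. *Mcm2*, which also binds histones and forms with *Mcm5* the gate through which DNA enters the ring, was at 97.2 to 133 CPM with a median of 128 in untreated and at 137 to 169.7 CPM with a median of 159.5 in treated mice, a rise of 0.41 (SE 0.049). For *Mcm5*, untreated mice were between 179 and 213 CPM (median 203) and treated mice between 255 and 284 CPM (median 266), a rise of 0.47 (SE 0.066). *Mcm3*, the subunit that docks on ORC and Cdc6, spanned 219.6 to 292 CPM with a median of 244 without and 317 to 377 CPM with a median of 338 with treatment, and its log2 rise was 0.49 (SE 0.062). For each of these, and for the 3 subunits below, the treated mice lay above the untreated mice even with the experiments pooled, which held for 3.61% of the genes tested. *Mcm4*, whose tail is phosphorylated by the Cdc7 kinase when origins fire, was between 161 and 223 CPM (median 189) in untreated and between 237 and 289 CPM (median 259) in treated mice, a rise of 0.50 (SE 0.064). *Mcm6*, which binds Cdt1, had 221 to 298 CPM with a median of 280.1 in untreated and 325 to 367 CPM with a median of 337 in treated mice, a rise of 0.37 (SE 0.057). *Mcm7*, the subunit marked for removal when forks meet, was between 161 and 189 CPM (median 173) in untreated and between 214 and 246 CPM (median 227) in treated mice, a rise of 0.48 (SE 0.058). The 95% intervals of the smallest and the largest of the 6 rises overlapped, at 0.25 to 0.48 for *Mcm6* and 0.37 to 0.63 for *Mcm4*. Adjusted p in edgeR was 1.54e-08 to 1.46e-06 for the 6.

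The activating factors rose by like amounts. *Mcm10* had the fewest counts of the 10 genes, and was at 28.4 to 56.7 CPM with a median of 39.4 in untreated and at 46.4 to 67.1 CPM with a median of 54.0 in treated mice, groups that overlapped with the experiments pooled, and its rise was 0.52 (SE 0.099). *Cdc45* was between 45.5 and 54.6 CPM (median 49.1) in untreated and between 61.3 and 70.9 CPM (median 68.0) in treated mice, a rise of 0.50 (SE 0.072). Of the kept cells, 9219 of 13625 in the larger and 4372 of 10073 in the smaller experiment were B1-8hi by their contigs. The paper's methods kept only such cells. In B1-8hi cells alone all 10 genes passed with rises of 0.27 to 0.39 and a median of 0.35, against 0.37 to 0.52 and 0.48 in all cells. There, 1650 of 9895 genes were higher and 1741 lower. In the larger experiment alone the 10 rises were 0.31 to 0.60, and in the smaller one 0.34 to 0.53. In the smaller one *Mcm10*, 0.36 (adjusted p = 0.0541), and *Cdt1*, 0.34 (adjusted p = 0.0555), did not pass the threshold in edgeR. Without TMM factors the 10 rises were 0.31 to 0.46 and all 10 passed, while the share of called genes that were higher went from 52.4% to 37.9%. Without these factors 1889 of 10270 genes were higher and 3089 lower.

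**Figure D1:**
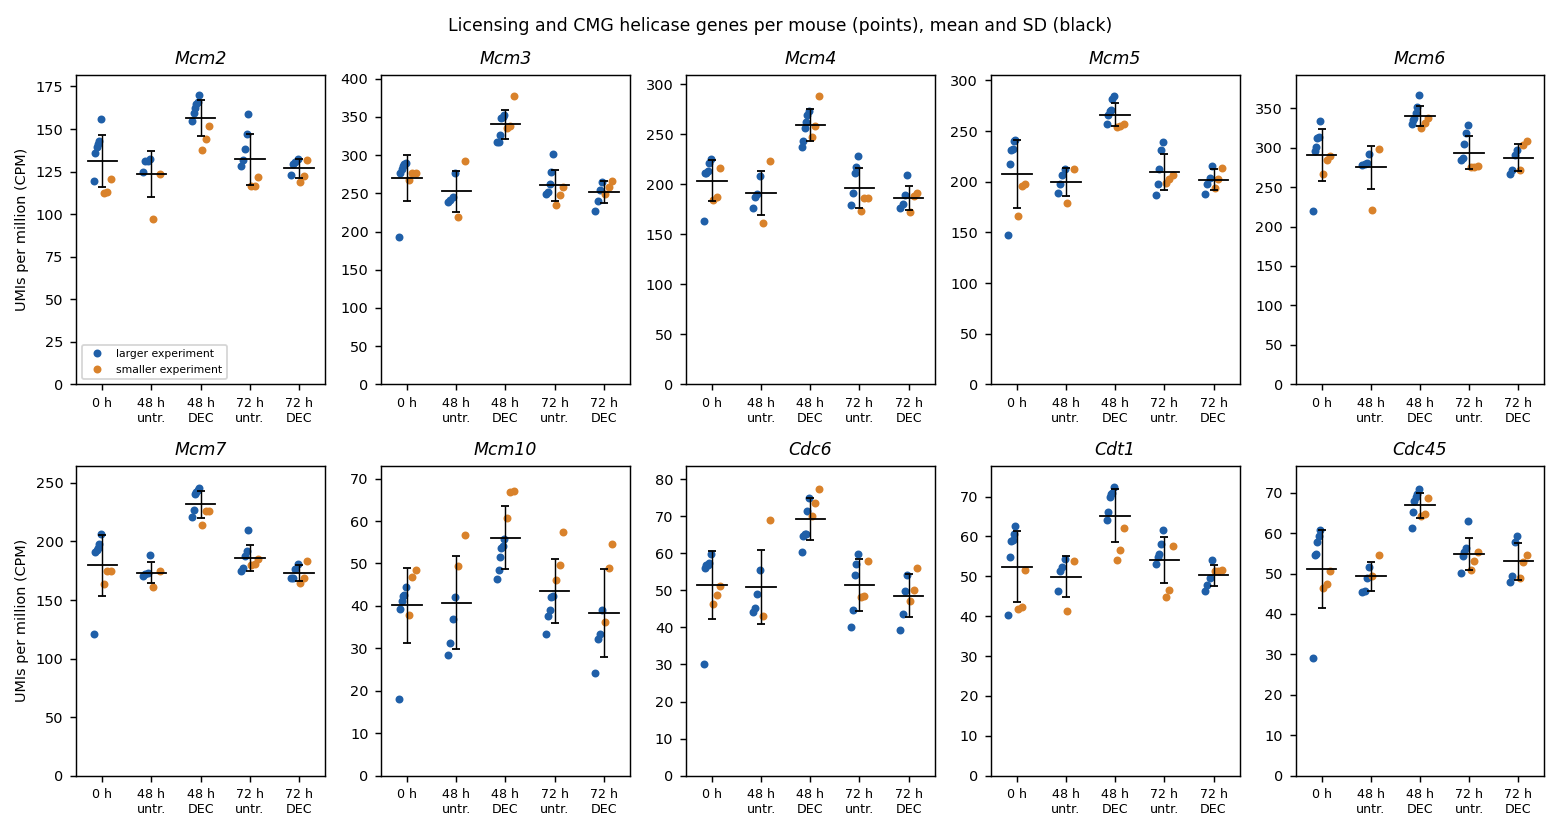
Level of each of the 10 genes (CPM, linear axis from 0) in every mouse of the time course, by group, with the larger experiment in blue, the smaller in orange, and the mean and SD of each group as a black line and bar. The 9 treated mice at 48 h had the highest group mean for all 10 genes, for example 232 ± 11.5 CPM (SD) for *Mcm7* against 173 ± 8.91 CPM in the 6 untreated mice.

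At 72 h treated and untreated mice were compared in the same way. None of the 10 genes passed the threshold, against 4.9% of all genes tested that were higher and 3.76% that were lower. The log2 differences were -0.20 to -0.04, all below 0, with a median of -0.06 against -0.001 over all genes. At an unadjusted p under 0.05, 2217 genes passed in edgeR and none of the 10 was among them. *Mcm7* was between 175 and 210.1 CPM (median 183) in untreated and between 164 and 183 CPM (median 169) in treated mice, and its difference was -0.10 with a 95% interval of -0.22 to 0.02. The lowest value was that of *Mcm10*, -0.20 (-0.42 to 0.02), where untreated mice were at 33.4 to 57.5 CPM with a median of 42.2 and treated mice at 24.2 to 54.6 CPM with a median of 36.1. The groups of both genes overlapped.

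Treated mice at 48 h were also above treated mice at 72 h for all 10 genes, by 0.32 to 0.66 (adjusted p in edgeR 2.95e-09 to 6.21e-06), where 24.8% of all genes were higher and 24.1% lower. *Mcm10* and *Cdc6* had the largest of these values, 0.66 (SE 0.10) and 0.60 (SE 0.093). In each experiment, every treated mouse at 48 h was above every treated mouse at 72 h for all 10, as for 8.72% of the genes tested. Between these groups 5 of 6 GC B cell and 1 of 4 T cell markers tested were lower and 3 of 5 plasma cell and 1 of 5 naive or memory markers tested were higher at 48 h by edgeR, and median UMIs per cell were 10004 to 14467 at 48 h and 5495 to 8673 at 72 h. The part of the markers and of depth was not tested. The smaller experiment alone gave 0.25 (adjusted p = 0.125) for *Cdt1*. In B1-8hi cells alone the 10 values were 0.21 to 0.52, and all passed.

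The effect of treatment differed between the times. The effect at 48 h minus that at 72 h was 0.40 to 0.72 and past the threshold for 10 of 10 genes, where 17.0% of all genes passed with a higher and 14.4% with a lower difference. It was 0.58 (SE 0.083, adjusted p = 3.49e-06 by edgeR) for *Mcm7*, and 0.59 (SE 0.14, adjusted p = 0.00113), the highest p of the 10, for *Cdc6*. In the same test 4 of 6 GC B cell and 1 of 4 T cell markers tested were lower and 1 of 6 GC B cell, 2 of 5 plasma cell and 1 of 5 naive or memory markers tested were higher, and their part was not tested. In the smaller experiment alone 6 genes passed, and *Mcm6*, *Mcm10*, *Cdc6* and *Cdt1* did not (0.35, 0.48, 0.50 and 0.30). In B1-8hi cells alone *Cdc6* was at 0.39 (adjusted p = 0.0667) in edgeR.

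**Figure D2:**
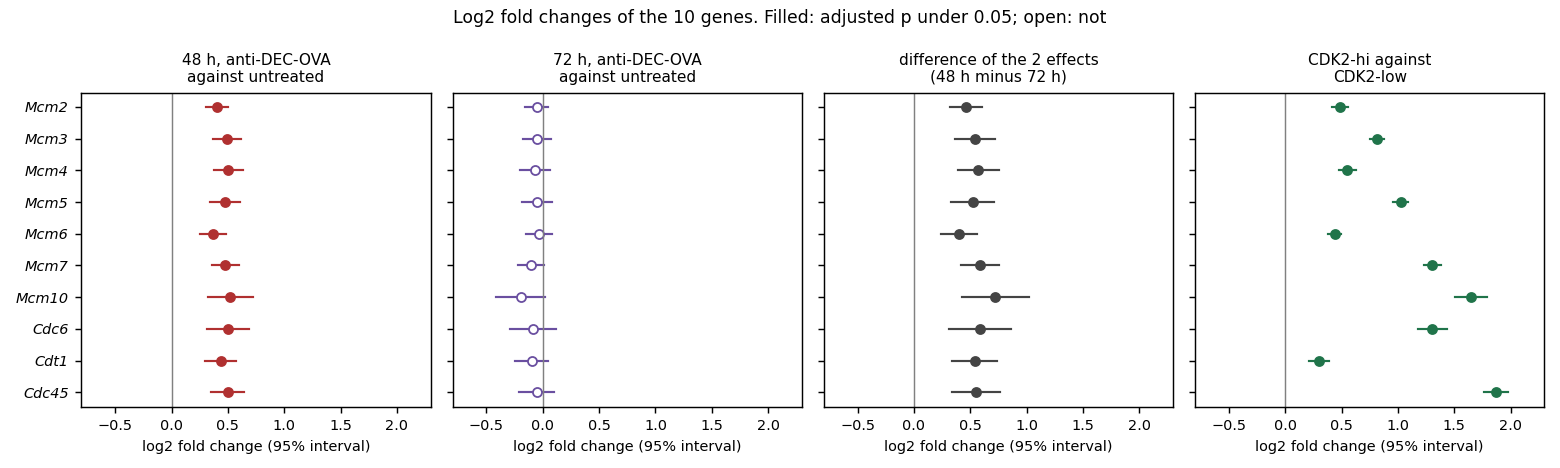
Log2 difference and 95% interval (horizontal axis, 0 marked) of each of the 10 genes in 4 panels, for treatment at 48 h, treatment at 72 h, the difference of these effects, and CDK2-hi against CDK2-low cells. Filled points had an adjusted p under 0.05 and open points did not. At 48 h the 10 values were 0.37 to 0.52, at 72 h -0.20 to -0.04, and between CDK2-hi and CDK2-low cells 0.30 to 1.87.

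Against 0 h, treated mice at 48 h were higher for all 10 genes, by 0.29 to 0.50 (adjusted p in edgeR 1.02e-08 to 1.33e-05; 26.0% of all genes were higher and 25.7% lower). In B1-8hi cells alone they were higher by 0.17 to 0.33, and all 10 passed. This comparison shares its treated mice with those above. Here 3 of 6 GC B cell, 1 of 4 T cell, 1 of 5 plasma cell and 3 of 5 naive or memory markers tested were lower and 1 of 6 GC B cell and 1 of 5 plasma cell markers tested were higher at 48 h, and median UMIs per cell were 4687 to 9375 at 0 h. Their part was not tested. Untreated mice at 48 h had log2 differences from 0 h of -0.10 to -0.02 and none of the 10 passed, where 0.0682% of all genes were called higher and 0.0682% lower, and 968 of 10270 were at an unadjusted p under 0.05. Untreated mice at 72 h had -0.08 to 0.05, again with none past the threshold, where 1.83% of all genes were higher and 2.12% lower and 1839 were at an unadjusted p under 0.05. The 95% intervals of the untreated time course reached at most 0.23 upward and -0.25 downward. In the order of group means the treated mice at 48 h were first for 10 of 10 genes, and the other 4 groups followed in an order that differed between genes, with neighbours that overlapped. *Mcm2* had group means of 157 ± 10.7 CPM (SD) in treated mice at 48 h, 132 ± 15.0 in untreated mice at 72 h, 131 ± 15.4 at 0 h, 127 ± 5.52 in treated mice at 72 h and 123 ± 13.4 in untreated mice at 48 h.

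The cells were then placed in cell cycle phases, since the genes follow the cycle. The 10 genes and all genes of the pathway lists below were removed from the S and G2-M gene lists. Each cell was thinned to 2871 UMIs before it was called, so that these genes and depth did not enter the call directly. The genes left in the S list rise with replication, so the calls are not independent of the levels of the 10. The part of this in the comparisons within and between phases was not tested. Cells with fewer UMIs had no phase, so that 21331 of the 23698 cells of the time course were called and all shares are of called cells. At 48 h, 1.71% to 7.79% of the cells of a treated mouse and 5.72% to 23.0% of those of an untreated mouse were left out in this way, and the part of this in the shares was not tested. At 48 h, G0-G1 held 12.9% to 25.9% (median 22.5%) of the called cells of treated mice and 35.5% to 58.0% (median 51.6%) of those of untreated mice, with no overlap (difference of means -27.3 points, exact permutation p = 0.000476, adjusted over 12 comparisons 0.000952). S phase held 32.0% to 39.2% (median 38.2%) and 18.8% to 32.3% (median 23.1%), and G2-M 35.7% to 48.4% (median 42.2%) and 23.0% to 39.5% (median 25.7%). Both were higher in treated mice, and the ranges of the groups overlapped slightly in each (exact permutation, adjusted p = 0.000952 and 0.000952). At 72 h the median shares in G0-G1 were 50.7% in treated and 45.1% in untreated mice, and no phase differed past the threshold (exact permutation, adjusted p = 0.577, 0.174 and 0.772 for G0-G1, S and G2-M). In the time course, 3.82% of cells lay within 0.02 of a score at which the call changes.

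The 10 genes had their highest levels in S cells. At 0 h, the ratio of the mean CPM in S cells to that in G0-G1 cells ran from 2.07 for *Cdt1* to 15.8 for *Cdc6*. The ratio was 12.1 for *Cdc45* and 11.5 for *Mcm10*, and between 2.98 (*Mcm2*) and 5.14 (*Mcm7*) for the ring. The 3 largest ratios rest on few counts in G0-G1 cells. Mean levels there were 7.77 CPM for *Cdc6*, 7.51 for *Cdc45* and 6.88 for *Mcm10*, and the lowest mice were at 3.37, 3.37 and 1.78 CPM. The ratio of S to G2-M cells was lower for *Cdc45* (1.60), *Mcm7* (1.71) and *Cdt1* (1.76) than for *Cdc6* (4.67). These ratios are given without a test, since S cells were called by genes that rise with replication.

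**Figure D3:**
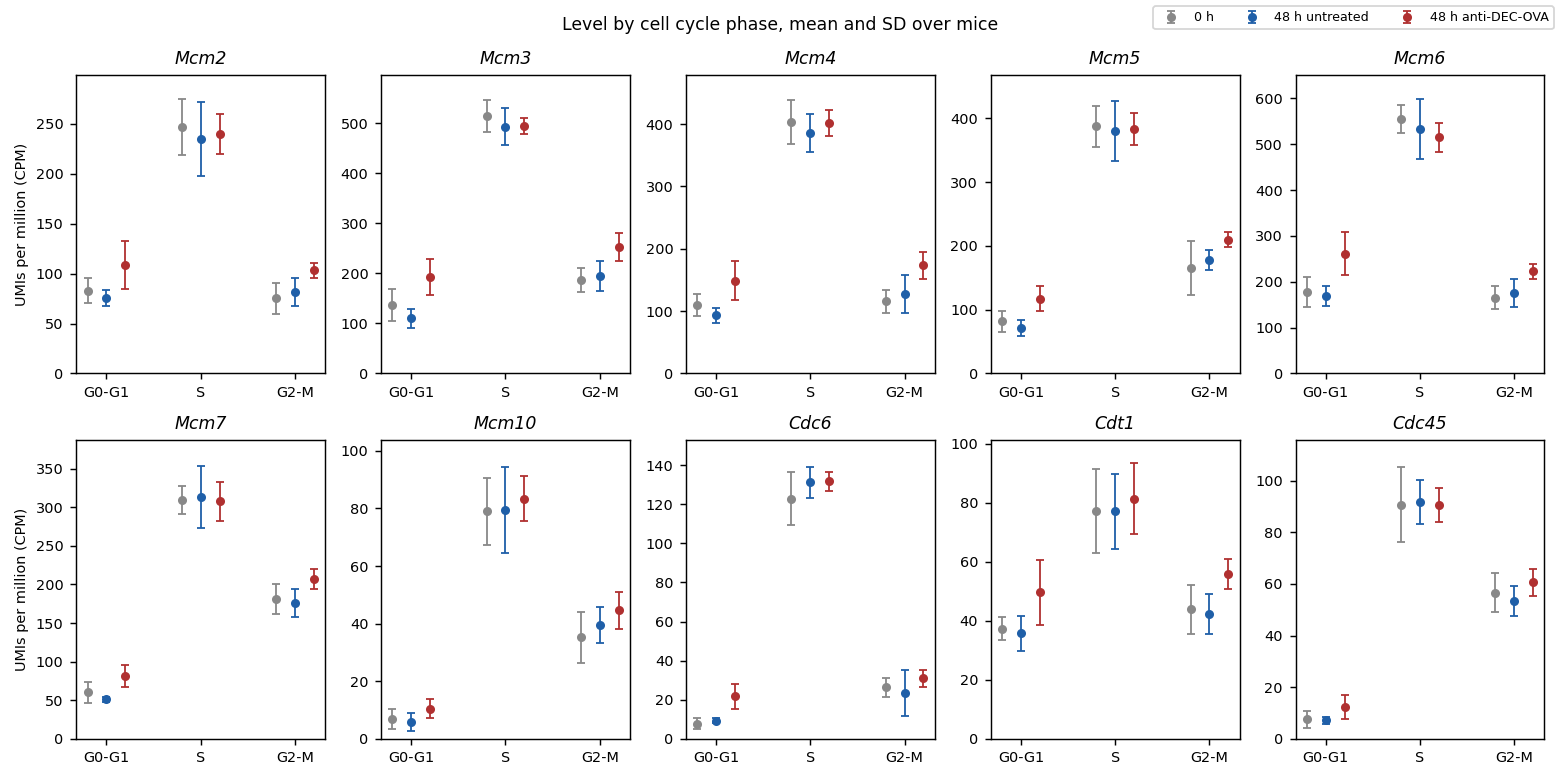
Level of each gene (CPM of the cells of a phase, linear axis from 0) in G0-G1, S and G2-M cells, as the mean and SD over mice at 0 h (grey), untreated mice at 48 h (blue) and treated mice at 48 h (red). For *Cdc6*, S cells at 48 h had 132 ± 4.82 CPM (mean ± SD, 9 treated mice) and 131 ± 7.80 CPM (6 untreated mice), and G0-G1 cells 21.7 ± 6.21 and 9.34 ± 1.49 CPM.

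Within S phase cells, no gene of the 10 differed between treated and untreated mice at 48 h past the threshold. The log2 differences were -0.02 to 0.10, their 95% intervals reached from -0.13 to 0.26, and 4.44% of 9138 genes were higher and 4.88% lower. Here 2 of 6 GC B cell, 1 of 1 T cell, 1 of 3 plasma cell and 1 of 4 naive or memory markers tested were lower and 1 of 3 plasma cell markers tested was higher in treated mice, and their part was not tested. At an unadjusted p under 0.05 edgeR gave 2164 genes, none of the 10 among them. *Mcm3* was at 494 ± 16.4 CPM (SD) in S cells of 9 treated mice and at 494 ± 36.7 in those of 6 untreated mice, and its difference was 0.03 (-0.07 to 0.12). The largest value, that of *Cdt1*, was 0.10 (-0.05 to 0.26). None of the 10 passed in either experiment alone (-0.08 to 0.18 in the larger and -0.04 to 0.20 in the smaller) or with library sizes alone (-0.04 to 0.08), where the share of called genes that were higher was 34.8% against 47.7% with TMM factors.

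Within G0-G1 cells, 9 of the 10 genes were higher in treated mice, by 0.49 to 1.22 on the log2 scale, where 5.22% of 8871 genes were higher and 4.62% lower. *Mcm3* went from 110.03 ± 19.0 to 193 ± 35.5 CPM (SD), a rise of 0.82 (SE 0.12, adjusted p = 3.49e-06 by edgeR), and *Mcm6* from 169 ± 21.9 to 262 ± 47.7 CPM, a rise of 0.64 (SE 0.099). *Cdc6* had the largest value, 1.22 (SE 0.25), from a low level of 9.34 ± 1.49 CPM in untreated mice. *Mcm10*, at 0.85 (SE 0.33, adjusted p = 0.0967 by edgeR), did not pass. When phases were called on cells that were not thinned, 3 genes lost their call in edgeR: *Cdc6* at 0.65 (adjusted p = 0.328), *Cdt1* at 0.39 (adjusted p = 0.0802) and *Cdc45* at 0.12 (adjusted p = 0.908). In B1-8hi cells alone *Cdc45* was at 0.53 (adjusted p = 0.350). The larger experiment alone gave 0.62 to 1.36, with 9 genes past the threshold. The smaller one, with 3 treated and 2 untreated mice, gave 0.07 to 0.87, and none of the 10 passed there, where 4 of 8514 genes passed in edgeR and 734 were at an unadjusted p under 0.05. G0-G1 held 99 to 158 cells per treated and 211 to 339 per untreated mouse. Here 2 of 6 GC B cell and 1 of 4 T cell markers tested were lower and 1 of 5 naive or memory markers tested was higher in treated mice, and their part was not tested.

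Within G2-M cells, 9 of 10 genes were again higher in treated mice, by 0.21 to 0.48, where 9.79% of 9165 genes were higher and 7.35% lower. In these cells 2 of 6 GC B cell, 1 of 1 T cell, 1 of 4 plasma cell and 1 of 4 naive or memory markers tested were lower and 1 of 6 GC B cell and 1 of 4 plasma cell markers tested were higher in treated mice, and their part was not tested. *Mcm4* had the largest value, 0.48 (SE 0.096), with 128 ± 30.6 CPM (SD) in untreated and 173 ± 21.4 CPM in treated mice. *Cdt1* rose by 0.44 (SE 0.089), and *Mcm10*, at 0.21 (adjusted p = 0.120 by edgeR), did not pass. *Cdc6*, at 0.41, lost its call when cells were not thinned, 0.40 (adjusted p = 0.0983), and in B1-8hi cells alone, 0.35 (adjusted p = 0.144), as did *Cdc45* in the latter, 0.19 (adjusted p = 0.141), all by edgeR. With library sizes alone 7 genes passed, without *Cdc6*, 0.37 (adjusted p = 0.0687), and *Cdc45*, 0.17 (adjusted p = 0.0854), and the share of called genes that were higher went from 57.1% to 38.9%. Under that scaling 629 of 9165 genes were higher and 986 lower. The larger experiment alone gave 0.23 to 0.55 with 7 genes past the threshold, without *Mcm5*, 0.27 (adjusted p = 0.0609), and *Cdc45*, 0.24 (adjusted p = 0.0950). The smaller one gave 0.16 to 0.53, where only *Mcm3* and *Mcm6* passed in edgeR (0.50 and 0.50).

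The difference in treatment effect between phases was then tested itself, in an edgeR fit of the samples of both phases with the mouse as a block, a test added after the values within phases were seen. The effect in G0-G1 minus that in S was 0.40 to 1.21 on the log2 scale and past the threshold for 7 of the 10 genes, *Cdc6* and the 6 subunits of the ring (0.48 to 1.21, adjusted p 4.02e-05 to 0.0275), where 1.22% of 9333 genes passed with a higher and 0.0964% with a lower difference. *Cdt1*, 0.40 (0.12 to 0.68), *Mcm10*, 0.74 (0.13 to 1.36), and *Cdc45*, 0.80 (0.27 to 1.32), did not pass. The effect in G2-M minus that in S was 0.12 to 0.41 and past the threshold for *Mcm2*, *Mcm3*, *Mcm4*, *Mcm6* and *Mcm7* (0.27 to 0.41, adjusted p 0.000639 to 0.0443 by edgeR), where 0.671% of 9382 genes passed with a higher and 0.576% with a lower difference. Of the markers, 2 of 5 plasma cell markers tested were higher in the first of these tests, with a median of 1.35 over the 5, and no marker passed in the second, by edgeR. Their part was not tested. *Mcm2* lost its call in the second test with library sizes alone, 0.30 (adjusted p = 0.0528). In the smaller experiment alone none of the 10 passed in either test by edgeR, with values of -0.061 to 0.76 and 0.056 to 0.40. The larger experiment alone gave 0.55 to 1.39, with 8 genes past the threshold, and 0.036 to 0.56, with 5.

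**Figure D4:**
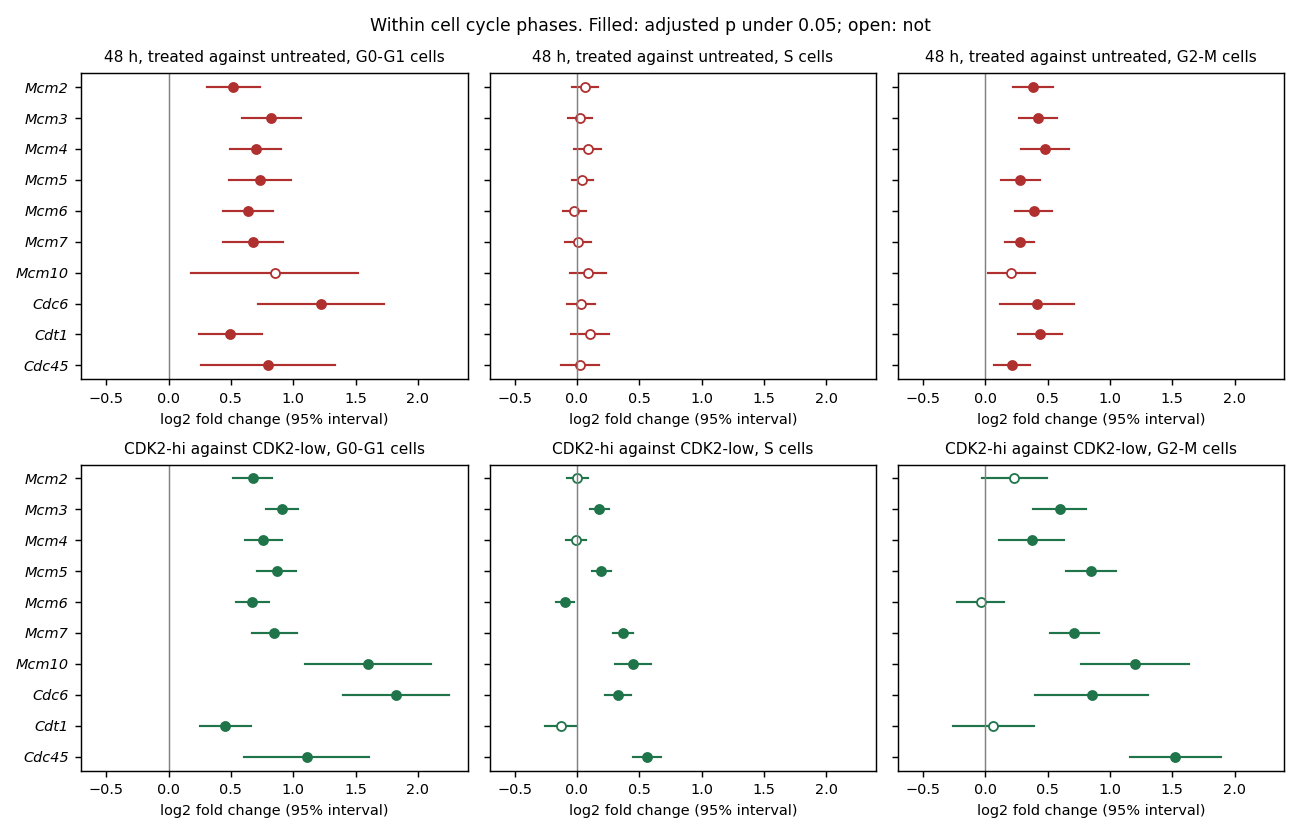
Log2 difference and 95% interval of each gene within G0-G1, S and G2-M cells, at 48 h between treated and untreated mice and between CDK2-hi and CDK2-low cells. Filled points had an adjusted p under 0.05 and open points did not. Within S cells the treatment differences lay at -0.02 to 0.10, near the line at 0, and within G0-G1 cells at 0.49 to 1.22.

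In the edgeR fit with TMM factors, all 10 genes were higher in CDK2-hi than in CDK2-low cells, and by plain CPM 9 of them were higher in each of the 7 mice and *Cdt1* in 4. CDK2 is the kinase that drives S phase, and the comparison asks how the genes differ between GC B cells with high and low CDK2 activity 72 h after anti-DEC-OVA. The paper compared only cells with a dark zone expression pattern. Here cells were not split by zone, so the populations may also differ in zone, within phases too. The part of zone was not tested. The differences ran from 0.30 (*Cdt1*) to 1.87 (*Cdc45*) on the log2 scale, with a median of 0.92 against -0.024 over all genes, and adjusted p in edgeR with the mouse as a block was 4.91e-21 to 1.32e-06. Of all genes tested 36.5% were higher and 38.6% lower. By their contigs, 4784 of 7588 CDK2-hi and 2799 of 4499 CDK2-low cells were B1-8hi. In these cells alone the 10 differences were 0.28 to 1.87 and all passed, where 3438 of 9792 genes were higher and 3690 lower. Each population is 1 pool, so population and pool cannot be told apart. Median UMIs per cell were 8962 to 11735 in CDK2-hi and 10548 to 14687 in CDK2-low cells, T cell markers summed to 44.4 to 66.3 and 60.7 to 147 CPM, and GC B cell markers to 1475 to 1672 and 1745 to 1984 CPM. By edgeR, 4 of 6 GC B cell, 1 of 1 tested T cell, 2 of 3 tested plasma cell, 3 of 5 naive or memory and 2 of 2 tested myeloid markers were lower in CDK2-hi cells, and 2 GC B cell and 1 plasma cell markers were higher, beside the 38.6% and 36.5% of all genes. The part of markers and depth in the result was not tested.

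The activating factors differed most. *Cdc45* was at 22.3 to 30.3 CPM with a median of 27.5 in CDK2-low and at 78.7 to 86.5 CPM with a median of 82.5 in CDK2-hi cells, a difference of 1.87 (SE 0.051), that is 3.66-fold. *Mcm10* was between 17.1 and 30.3 CPM (median 20.02) and between 52.8 and 69.2 CPM (median 58.5), a difference of 1.65 (SE 0.068). In both genes all 7 mice had the higher value in CDK2-hi cells, as for 20.1% of the genes tested, and every CDK2-hi sample was above every CDK2-low sample, as for 14.4%. Of the loading factors, *Cdc6* was between 29.7 and 47.2 CPM (median 36.3) in CDK2-low and between 68.3 and 87.6 CPM (median 78.4) in CDK2-hi cells, a difference of 1.31 (SE 0.062). *Cdt1* was between 53.2 and 67.7 CPM (median 59.7) and between 61.0 and 70.3 CPM (median 63.8), a difference of 0.30 (SE 0.044) in the fit. The populations of *Cdt1* overlapped, and by plain CPM it was higher in CDK2-hi cells in 4 of 7 mice (log2 ratios of -0.08 to 0.27).

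Within the ring the subunits did not differ equally. *Mcm7* had 94.8 to 127 CPM with a median of 115 in CDK2-low and 236 to 254 CPM with a median of 247 in CDK2-hi cells, a difference of 1.30 (95% interval 1.23 to 1.38). *Mcm5* was between 136 and 177 CPM (median 163) and between 264 and 301 CPM (median 288), a difference of 1.02 (0.96 to 1.09). *Mcm3* followed at 0.81 (0.75 to 0.88), and the intervals of these 3 subunits did not meet. *Mcm4*, *Mcm2* and *Mcm6* had smaller differences, 0.55 (0.48 to 0.63), 0.48 (0.41 to 0.55) and 0.44 (0.38 to 0.50). For all 6 subunits the CDK2-hi value was the higher in 7 of 7 mice and every CDK2-hi sample was above every CDK2-low sample. Without TMM factors the median of all genes was -0.222 and the share of called genes that were higher went from 48.6% to 29.4%, so that the differences here are relative to the TMM scaling. With library sizes alone all 10 genes still passed and were higher, with 0.24 (adjusted p = 4.49e-08) for *Mcm6*, 0.29 for *Mcm2*, 0.35 for *Mcm4* and 0.10 (adjusted p = 0.0402) for *Cdt1* in edgeR. Under that scaling 2425 of 10142 genes were higher and 5837 lower.

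**Figure D5:**
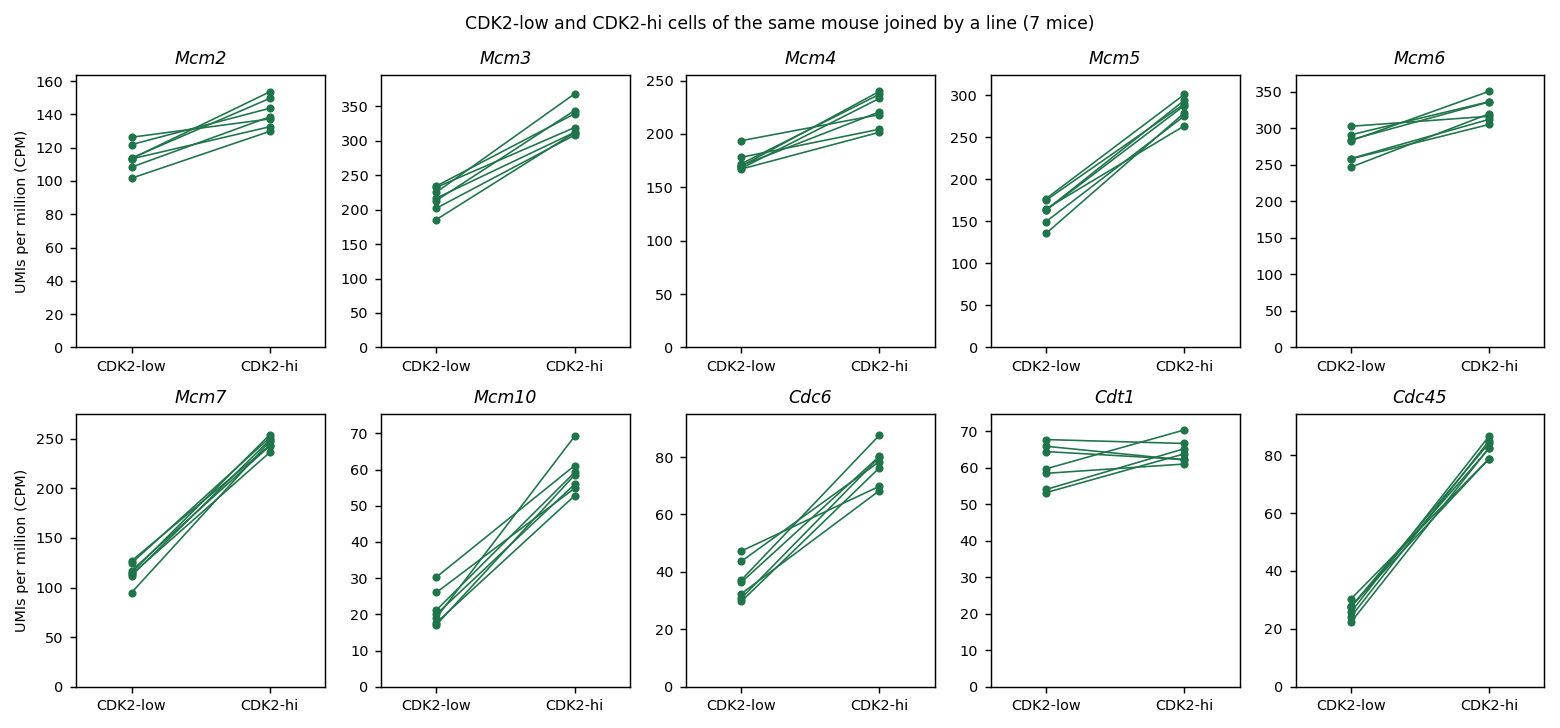
Level of each gene (CPM, linear axis from 0) in CDK2-low and CDK2-hi cells, with a line for each of the 7 mice. The lines rise in 7 of 7 mice for 9 genes and in 4 of 7 mice for *Cdt1*.

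The phases were far apart between the populations. Here cells were thinned to 5274 UMIs and those with fewer had no phase, 8.36% to 18.2% of the cells of a mouse in CDK2-hi and 3.77% to 13.6% in CDK2-low, so that 10879 of 12087 were called. The part of this in the shares was not tested. G0-G1 held 6.51% to 11.9% (median 8.93%) of called CDK2-hi and 70.8% to 82.2% (median 76.8%) of called CDK2-low cells, S 35.2% to 46.1% (median 41.4%) and 15.7% to 24.6% (median 19.3%), and G2-M 45.2% to 58.1% (median 49.7%) and 1.71% to 5.16% (median 3.79%). Each difference had an exact sign-flip permutation p = 0.0156, the smallest that 7 pairs allow, and an adjusted p of 0.0208. Within G0-G1 cells, all 10 genes were higher in CDK2-hi cells, by 0.45 to 1.82, where 22.1% of 8756 genes were higher and 20.8% lower. *Cdc6* had the largest difference there, 1.82 (SE 0.21), with 6.56 ± 1.65 CPM (SD) in CDK2-low and 25.6 ± 14.9 CPM in CDK2-hi cells, and *Cdt1* the smallest, 0.45 (SE 0.10). G0-G1 cells numbered 31 to 144 per mouse in CDK2-hi and 204 to 822 in CDK2-low. Here 4 of 6 GC B cell, 1 of 1 T cell and 1 of 3 naive or memory markers tested were lower and 1 of 3 plasma cell markers tested was higher in CDK2-hi cells, and their part was not tested. With library sizes alone all 10 were higher there by 0.35 to 1.71, and the share of called genes that were higher went from 51.4% to 35.0%. Under that scaling 1442 of 8756 genes were higher and 2673 lower.

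Within S cells the members of the pathway parted. *Cdc45*, *Mcm10*, *Mcm7*, *Cdc6*, *Mcm5* and *Mcm3* were higher in CDK2-hi cells, by 0.56, 0.45, 0.37, 0.33, 0.20 and 0.18, while *Mcm6* was lower, -0.10 (adjusted p = 0.0205 by edgeR), where 25.1% of 9179 genes were higher and 27.5% lower. *Mcm2*, at 0.00 (-0.08 to 0.09), and *Mcm4*, at -0.01 (-0.09 to 0.08), did not pass. *Cdt1* was at -0.13 (adjusted p = 0.0621) and passed as lower when cells were not thinned, -0.19 (adjusted p = 0.00999), and with the full S and G2-M lists, -0.14 (adjusted p = 0.0380), all by edgeR. *Cdc45* was at 84.4 ± 6.35 CPM (SD) in CDK2-low and 111 ± 6.44 CPM in CDK2-hi S cells of 7 mice, and *Mcm6* at 581 ± 29.1 and 490.4 ± 16.0 CPM. Within S cells 5 of 6 GC B cell, 1 of 1 T cell, 1 of 3 naive or memory and 1 of 1 myeloid markers tested were lower and 1 of 6 GC B cell and 1 of 3 plasma cell markers tested were higher in CDK2-hi cells, and their part was not tested. These calls depended on the scaling. With library sizes alone the median of all genes within S cells was -0.192, and the share of called genes that were higher went from 47.7% to 25.4%. Under that scaling 1424 of 9179 genes were higher and 4176 lower, and *Cdc45*, *Mcm10*, *Mcm7* and *Cdc6* were still higher (0.41, 0.30, 0.22 and 0.18). *Mcm5*, 0.05 (adjusted p = 0.296), and *Mcm3*, 0.03 (adjusted p = 0.487), then lost their call, and *Mcm2* (-0.15), *Mcm4* (-0.16), *Mcm6* (-0.25) and *Cdt1* (-0.28) were lower in edgeR.

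Within G2-M cells of the CDK2 pools only 3 mice had 20 or more cells in both populations, and 7 genes passed as higher, where 14.0% of 9319 genes were higher and 8.92% lower. Among the markers 3 of 6 GC B cell, 1 of 1 T cell and 1 of 3 plasma cell markers tested were higher in CDK2-hi cells, and their part was not tested. *Mcm2*, *Mcm6* and *Cdt1* did not pass (0.23, -0.04 and 0.06), and *Mcm4*, at 0.37, lost its call with the full lists, 0.31 (adjusted p = 0.0513), and with library sizes alone, 0.22 (adjusted p = 0.218), in edgeR. *Cdt1* was then at -0.090, and the share of called genes that were higher went from 61.1% to 31.2%.

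The other genes of the pathway were described by lists, whose counts stand beside the 24.8% of all genes that were higher and 22.5% that were lower at 48 h. Of the 6 genes of the origin recognition complex, 4 were higher at 48 h in treated mice (*Orc1* by 0.53), *Orc4* was lower (-0.14) and 1 did not pass, with a median of 0.23. All 4 GINS genes, the partners of Cdc45 in the helicase, were higher, with a median of 0.47, and so were the 4 genes of licensing inhibition and turnover, with a median of 0.45. These are *Gmnn* (0.54), which binds and blocks Cdt1, *Dtl* (0.38) and *Skp2* (0.52), which mark Cdt1 for destruction, and *Mcmbp* (0.12), which binds Mcm subunits. Of 8 origin firing genes 5 were higher and 3 did not pass, with a median of 0.25. Of 25 replication fork genes 24 were higher and 1 did not pass, with a median of 0.39, among them *Tipin* (0.61), which protects stalled forks, and *Rpa2* (0.56), a subunit of the protein that coats single-stranded DNA. *Mcm8* was higher (0.43) and *Mcm9* lower (-0.28). These relatives of the ring act in recombination and not in licensing. The median over all genes tested was -0.005. At 72 h, no gene of these lists passed in either direction, where 4.9% of all genes were higher and 3.76% lower. With library sizes alone, 3 of 6 ORC genes, 3 of 4 genes of inhibition and turnover and 23 of 25 fork genes were higher at 48 h, and the GINS and firing counts were as above. Under that scaling 1889 of 10270 genes were higher and 3089 lower.

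Between CDK2-hi and CDK2-low cells, 4 of 6 ORC genes were higher, 1 was lower and 1 did not pass (median 0.29). All 4 GINS genes (median 1.34), all 4 genes of inhibition and turnover (median 1.04), all 8 firing genes (median 0.82) and all 25 fork genes (median 1.13) were higher, where 36.5% of all genes were higher and 38.6% lower. *Recql4*, a helicase-family factor needed for origin firing, had 2.21, and *Clspn*, which couples the fork to checkpoint signalling, 2.14. With library sizes alone 3 ORC genes were higher and 2 lower, and 3 of 4 genes of inhibition and turnover, 24 of 25 fork genes and all GINS and firing genes were higher. Under that scaling 2425 of 10142 genes were higher and 5837 lower. *Mcm8* was higher by 1.59 and *Mcm9*, at 0.09, did not pass. Within G0-G1 cells at 48 h, treated mice had higher levels of 14 of 25 fork genes, 2 of 4 GINS genes, 2 of 6 ORC genes, 2 of 4 genes of inhibition and turnover and 1 of 7 firing genes tested, and none was lower, where 5.22% of all genes were higher. Within G2-M cells the counts were 14 of 25, 3 of 4, 3 of 6, 2 of 4 and 0 of 8, with none lower, where 9.79% of all genes were higher. With library sizes alone the counts within G2-M cells were 8 of 25, 3 of 4, 1 of 6, 1 of 4 and 0 of 8, where 629 of 9165 genes were higher. Those within G0-G1 cells were as above, where 468 of 8871 genes were higher. Within S cells, *Rpa3* (0.22) and *Tipin* (0.20) were the only genes of the lists that passed, both higher, where 4.44% of all genes were higher.

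Across the 39 mice of the time course, the 10 genes varied together. Pearson's r between log2 CPM of 2 of them, centred within experiment, was 0.68 (*Mcm2* and *Mcm10*) to 0.96 (*Mcm3* and *Mcm4*) over 45 pairs, with a median of 0.86. Centred also within group it was 0.38 to 0.90, with a median of 0.77. Mouse 6 at 0 h, the lowest for all 10 genes among the 0 h mice of its experiment, was kept here. Its part in these values was not tested. The genes whose pattern was most like the mean of the 10 included *Tipin* (r 0.974), *Dut*, *Rfc4*, *Rrm2*, *Pcna*, *Orc6*, *Hells*, *Asf1b* and *Chaf1a* (r 0.939). Over the 30 mice left without the treated mice at 48 h, r was 0.946 for *Tipin* and at least 0.871 for each of the 9 named. These values are descriptions without a test, since mice of a pool share a library and all genes of a mouse share its mix of phases.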

How the data were processed

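Cells of each mouse carried hashtag antibodies and were run in pools on the 10X 5′ assay. For each pool the authors deposited UMI counts per gene and cell, not normalized, and hashtag counts, made with Cell Ranger. The file headers name version 8.0.1, and the submitters' processing notes list Cell Ranger 6.0.1, Seurat 5.1.0 and build mm39. Assembled contigs, deposited by the authors with UMI counts, served only to pick B1-8hi cells. The deposited list of mice gives the hashtags and condition of each mouse, where days 7, 9 and 10 were taken as 0 h, 48 h and 72 h, and C and N as cytoplasmic and nuclear reporter.

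HTODemux (Seurat 5.3.0, positive quantile 0.99) called the hashtags, and a cell went to a mouse if it was positive for that mouse's hashtags and no others. Hashtags with a mean under 1 UMI per cell were left out, 2 in each CDK2 pool, as were cells with hashtags beyond those of 1 mouse (1936, 2705, 838 and 390 in the larger, smaller, CDK2-hi and CDK2-low pools). Doublets within a mouse were not searched for. A cell needed at least 200 detected genes, and less than 10% of its UMIs from mitochondrial genes. The latter removed 350, 3114, 316 and 95 cells, so that 13625, 10073, 7588 and 4499 remained. Sums per mouse were tested with edgeR 4.0.16 in R 4.3.3 by its quasi-likelihood test, after filterByExpr and TMM factors, with Benjamini-Hochberg adjustment over all genes and a threshold of 0.05. All 39 mice of the time course entered 1 fit with a term for the experiment, and the mouse was a block in the CDK2 pools. Same-numbered samples of those pools come from the same mouse, and their deviations correlated at 0.112 to 0.43, against -0.27 to 0.13 between mice. CPM values are divided by the total UMIs alone. Phases came from CellCycleScoring after thinning to 2871 UMIs per cell in the time course and 5274 in the CDK2 pools, the 10th percentiles, below which a cell had no phase, for mice with at least 20 cells of a phase. Likeness to the 10 genes was Pearson's r of log2(CPM + 1), centred within experiment. The edgeR tests were also tried on simulated data, in which far fewer genes changed than were called at 48 h. No result here rests on those runs. The alternative count test was DESeq2 1.42.0. Other steps used Python 3.11.15, scipy 1.17.1, pandas 2.3.3 and numpy 2.4.6.

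The 10 genes are named in every comparison. They and the pathway and marker lists were chosen with earlier results of these data known, and examples from the lists were picked after their values were seen. A marker and a gene of like pattern are not reported here. Alternatives were DESeq2, no TMM factors, no filter on low counts or on cells, no term for the experiment, only the groups compared, each experiment alone, only B1-8hi cells, the highest hashtags, no block, each mouse of the CDK2 pools left out, and other phase calls. Within phases, library sizes alone and each experiment alone were added after seeing the data, as were a fit without 1 mouse at 0 h and the test of the effect between phases with its alternatives.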

Additional observations from a re-analysis of the deposited data

Results flagged for a closer look

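In 10 of 91 groups examined, 1 sample lay far from the others by Dixon's criterion at 95%. Chance flags about 1 in 20 groups, and the groups of different genes share their mice. At 0 h these were the lowest values of *Mcm3* (192 CPM), *Mcm7* (121 CPM), *Mcm10* (18.1 CPM), *Cdc6* (30.2 CPM) and *Cdc45* (29.2 CPM) and of the share of cells with a phase in S (17.6%), all in mouse 6 of the larger experiment. In that mouse 13.1% of the 290 cells with a phase were in G2-M, against 20% to 40.2% in the other 0 h mice, and naive or memory B cell markers summed to 218 CPM and T cell markers to 106 CPM, each the highest of the 0 h mice. In untreated mice at 48 h, *Mcm2* (97.2 CPM) and *Mcm6* (221 CPM) each had 1 low mouse. *Cdc45* had 1 high mouse among untreated mice at 72 h (63.0 CPM), and *Mcm4* 1 high mouse among CDK2-low cells (194 CPM).

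The effect of anti-DEC-OVA differed between 48 h and 72 h for all 10 genes by edgeR's test of the difference. Of all genes tested, 17.0% passed with a higher and 14.4% with a lower difference. In the smaller experiment alone 6 of the 10 genes passed, and in B1-8hi cells alone 9. The differences, in log2 units, were 0.46 for *Mcm2*, 0.54 for *Mcm3*, 0.57 for *Mcm4*, 0.52 for *Mcm5*, 0.40 for *Mcm6*, 0.58 for *Mcm7*, 0.72 for *Mcm10*, 0.59 for *Cdc6*, 0.54 for *Cdt1* and 0.55 for *Cdc45*.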

How the results depend on the processing

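Of 396 comparisons of a count or share with its value under an alternative, 359 stayed within the limits set for them. For single genes, 1122 of 1237 kept both their direction and their side of the threshold, 51 lost and 5 gained a call, and 59 changed sign, of which 1 had passed. Library sizes alone and each experiment alone within phases, and the fit without mouse 6 at 0 h, were chosen after seeing the data.

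The counts of all genes past the threshold that moved by more than 1.5 times are these. Without a term for the experiment they were 2680 at 48 h (with the term 4855), 217 at 72 h (889), 3104 between treated mice at 48 h and 72 h (5025), 5 and 77 in untreated mice at 48 h and 72 h against 0 h (14 and 406), 3338 in treated mice at 48 h against 0 h (5308) and 1222 for the difference of the effects (3223). In the smaller experiment alone they were, in that order and leaving out treated mice against 0 h, 2149, 22, 2661, 0 (774 at an unadjusted p under 0.05 in edgeR), 3 and 768, and 6 of the 10 genes passed for the difference of the effects. By DESeq2, 25 genes passed in untreated mice at 48 h against 0 h. A fit of only the groups compared gave 256 at 72 h against 0 h. In B1-8hi cells alone, 1927 genes passed for the difference of the effects, 5 in untreated mice at 48 h against 0 h, and 576, 498 and 943 at 48 h within G0-G1, S and G2-M cells (873, 852 and 1571 in all cells). On phases of cells that were not thinned, 564 passed within G0-G1. Within G0-G1, S and G2-M cells at 48 h, 4, 229 and 206 genes passed in the smaller experiment alone, and 279 within S and 809 within G2-M in the larger. Of the 10 genes, 0 within G0-G1 and 2 within G2-M passed the threshold in the smaller experiment. All 10 values were above 0 there, at 0.07 to 0.87 and 0.16 to 0.53. For the effect in G0-G1 minus that in S, 0 genes passed in the smaller experiment (509 at an unadjusted p under 0.05 in edgeR) and 188 in the larger, against 123, and for G2-M minus S 8 in the smaller, against 117. Of the 10 genes, 0 and 0 passed in the smaller experiment, against 7 and 5. Between CDK2-hi and CDK2-low S cells, 2 of the 10 genes were lower both without thinning and with the full lists, and 4 with library sizes alone, against 1. Fewer samples or cells enter the fits of 1 experiment and of B1-8hi cells. The other causes were not tested.

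Library sizes alone in place of TMM factors lowered the share of calls that were higher from 50.7% to 34.3% between treated mice at 48 h and 72 h, from 50.3% to 35.4% in treated mice at 48 h against 0 h, and from 54.0% to 37.7% for the difference of the effects, and DESeq2 raised it from 50% to 68.0% in untreated mice at 48 h. All 10 genes passed in the same direction in the first 3 of these under both scalings. With library sizes alone 1834, 1968 and 1260 of 10270 genes were higher in these 3.

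All values that changed sign had missed the threshold before, except *Mcm2* in the effect within G0-G1 minus that within S. At 72 h, treated against untreated, the smaller experiment alone gave 0.042 (*Mcm2*), 0.043 (*Mcm3*), 0.067 (*Mcm6*) and 0.038 (*Cdt1*), and B1-8hi cells 0.0085 (*Mcm2*), 0.026 (*Mcm5*) and 0.014 (*Cdc45*). In untreated mice at 48 h against 0 h, the smaller experiment gave 0.0072 (*Mcm4*), 0.095 (*Mcm5*), 0.00066 (*Mcm7*), 0.29 (*Mcm10*), 0.22 (*Cdc6*), 0.090 (*Cdt1*) and 0.12 (*Cdc45*), and a fit without a term for the experiment 0.0054 (*Mcm10*). In untreated mice at 72 h against 0 h, the smaller experiment gave 0.15 (*Mcm5*), 0.0066 (*Mcm6*) and 0.098 (*Cdc6*), the larger one -0.0085 (*Mcm2*), 0.017 (*Mcm6*), -0.051 (*Mcm10*) and -0.035 (*Cdt1*), B1-8hi cells -0.011 (*Mcm2*), -0.053 (*Mcm10*), -0.087 (*Cdt1*) and -0.013 (*Cdc45*), and the fit without mouse 6 at 0 h -0.019 (*Mcm2*), -0.020 (*Mcm7*), -0.017 (*Mcm10*) and -0.022 (*Cdt1*). There, no term for the experiment gave -0.012 (*Mcm2*), DESeq2 0.0028 (*Mcm5*) and 0.0050 (*Mcm6*), no TMM factors 0.0051 (*Mcm5*) and 0.0095 (*Mcm6*), no filter on low counts 0.0041 (*Mcm6*), only the groups compared 0.00073 (*Mcm6*), the highest hashtags 0.0064 (*Mcm6*), and no filter on cells -0.019 (*Cdt1*). Within S cells at 48 h, B1-8hi cells gave -0.015 (*Mcm7*) and -0.021 (*Cdc6*), cells not thinned 0.0062 (*Mcm6*), library sizes alone -0.018 (*Mcm7*) and -0.0029 (*Cdc45*), the larger experiment -0.0052 (*Mcm2*), -0.030 (*Mcm3*), -0.019 (*Mcm5*), -0.042 (*Mcm7*), -0.012 (*Cdc6*) and -0.031 (*Cdc45*) and the smaller 0.11 (*Mcm6*) and -0.038 (*Mcm10*). Between the CDK2 populations within S cells, *Mcm2* was at -0.015 without thinning and at -0.013 with the full lists, and library sizes alone gave -0.15 (*Mcm2*), past the threshold. Within G2-M cells they gave -0.090 (*Cdt1*). For the effect in G0-G1 minus that in S at 48 h, the smaller experiment gave -0.014 (*Mcm2*), -0.0082 (*Cdt1*) and -0.061 (*Cdc45*).

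Without the replicate block, 7088 genes passed between CDK2-hi and CDK2-low cells, against 7620 with the mice paired, and the pairing changed no call of the 10 genes. Leaving out each of the 7 mice in turn gave 7235 to 7605 genes and kept all 10 higher. Depth limits *Mcm10* most, with 36 UMIs over all cells in the mouse with the fewest. Among G0-G1 cells its lowest level was 1.70 CPM in untreated mice at 72 h and 2.08 CPM in untreated mice at 48 h.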
